A study of Mus musculus with 44 samples.

Results

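The comparison described here is that of NCoR-deficient (NKO) against control (WT) bone marrow-derived macrophages (BMDMs) after treatment with poly I:C, a synthetic double-stranded RNA. Its members are the 4 RNA-seq libraries labelled WT_PolyIC and NKO_PolyIC, 2 of each, out of 44 in the series, and all genes counted in them were examined. WT cells had the genotype NCoR flox/flox and NKO cells NCoR flox/flox, LysMCre, both on a C57BL/6 background, so that every library compared carried the floxed allele and only NKO libraries carried Cre, which is expressed from the Lyz2 (LysM) locus of myeloid cells. Both groups received poly I:C for 6 h, and their library names carry the same date stamp. In the same table and under that stamp were WT and NKO libraries given vehicle, IFN-β or IL-4 for 6 h, 2 of each, which are used here only to place the poly I:C values. The comparison addresses how macrophages with and without NCoR differ under a TLR3 ligand. Whether that difference itself depends on poly I:C was tested separately, by an interaction with vehicle.

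NCoR, encoded by Ncor1, is a large scaffold protein that brings the histone deacetylase HDAC3 to DNA-bound transcription factors, among them unliganded nuclear receptors such as the liver X receptors (LXRs), and is best known for repressing their target genes. Poly I:C is recognised in endosomes by TLR3, which signals through the adaptor TRIF (Ticam1) to the kinases TBK1 and IKK, and from there to IRF3 and NF-κB. IRF3 switches on Ifnb1, whose product acts back on the cells through its receptor and the factors STAT2 and IRF9 to raise the interferon-stimulated genes, whereas NF-κB raises cytokines, chemokines and its own inhibitors.

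The 4 libraries held between 10910854 and 12450654 reads in genes, which were 83.97% to 84.96% of mapped reads. Levels are given as normalised CPM, which are counts scaled by TMM to a common library size, and 3 counts, taken as the limit of detection, corresponded to 0.311 to 0.361 normalised CPM. Such a limit covers counting error only. The libraries of a group differed by more than sampling noise (chi-square per degree of freedom 1.85 in WT and 2.25 in NKO) and correlated across genes at r = 0.990 and 0.991 on the log2 scale. All 4 held Xist (6553 to 10378 counts) and none held a read of Ddx3y, Eif2s3y, Kdm5d or Uty, so that both genotypes were of the same sex. The labels do not say that the 2 libraries of a group came from separate mice. The p-values rest on a spread between libraries of a group that was estimated over all 24 libraries fitted together. That spread may be technical, and it is not that of the 4 compared libraries alone.

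The macrophage identity was checked first. All 8 macrophage markers (Cd68, Adgre1, Csf1r, Itgam, Lyz2, Mertk, Fcgr1 and Cd14) were abundant. Their summed level was 16650 and 16370 normalised CPM in WT and 13400 and 13210 in NKO. Lyz2 made up much of this sum, with 63639 and 60207 of 139866 and 136165 counts in WT. In NKO it had 46735 and 45255 of 126944 and 127452. Of the 8 markers, 6 were below 0 in log2 fold change (median -0.35), and 1, Lyz2, was called lower. The 2 above 0 were Csf1r and Itgam. Of the markers of other lineages, Cd3e, Ncr1, Ly6g, Flt3, Epx and the globins did not exceed 2 counts. Other members of these lists were detected. Clec9a, of the dendritic cell list, was called lower at 101 and 119 counts in WT and 62 and 78 in NKO. It was not called without WT replicate 2 or NKO replicate 1. The list summed to 130 and 150 counts in WT and 90 and 114 in NKO. S100a8 of the neutrophil list had 29 to 43 counts. Camp of that list was called lower at 8 and 5 counts in WT and 2 and 0 in NKO, but not without WT replicate 1 or NKO replicate 2. Cd4 had 41 to 51 counts. Of the T cell list, Lck had 181 and 187 counts in WT and 105 and 112 in NKO, and of the NK cell list Klrk1 had 278 and 281 against 195 and 271. Of 8 fibroblast markers, 6 were tested and 3 called lower (Col1a1, Col1a2 and Col3a1), but only 1 without WT replicate 2, Lum was at 0, and the list summed to 1122 and 1231 counts in WT and 803 and 751 in NKO. Col1a1 was 43.7 and 50.1 normalised CPM in WT and 20.2 and 20.6 in NKO. The part that such cells play in the differences below was not tested. In RNA from bulk cultures, fewer cells of one type and less RNA per cell cannot be told apart.

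Ncor1 itself (NM_001252313, mm10 chromosome 11, 62316426 to 62438515, minus strand) was measured at 174 and 171 normalised CPM in WT and at 53.9 and 61.1 in NKO. The groups did not overlap, and the log2 fold change was -1.59 ± 0.07 (SE), a 3.01-fold reduction with an adjusted p of 4.13e-27 (edgeR's quasi-likelihood F-test with Benjamini-Hochberg adjustment, as for all adjusted p-values here). Every exon of the transcript is counted, so that reads from exons outside the deleted part and from cells that escaped Cre are included. Hdac3, its deacetylase partner, did not pass the test, at 41.1 and 39.2 normalised CPM in WT and 39.4 and 38.8 in NKO. Tbl1xr1, another subunit of the complex, was higher in NKO, at 123 and 131 against 53.0 and 51.5. Of the 12 genes listed for the NCoR and HDAC3 complex, Ncor1 and Tbl1xr1 were called. Lyz2, which encodes lysozyme and whose locus drives Cre, was 7576 and 7237 normalised CPM in WT and 4935 and 4692 in NKO (log2 fold change -0.62 ± 0.09, adjusted p = 5.64e-05 by edgeR).

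NKO and WT cells under poly I:C differed in both directions. A gene was called when its adjusted p was below 0.05 and its fold change above 1.5. Of 13407 genes tested, 795 (5.93%) were called, 403 of them higher in NKO (3.01%) and 392 lower (2.92%). The median log2 fold change was 0.82 among higher and -0.88 among lower genes, against 0.00 over all genes tested. More than 2-fold differences were found for 139 of the higher and 148 of the lower genes. In 27 called genes, 11 higher and 16 lower, both libraries of a group had 3 counts or fewer. Their estimated fold changes depend on the prior count and are not exact. These genes are included in the medians and counts above. Without the threshold on fold change, 1361 genes were higher and 1314 lower.

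**Figure D1:**
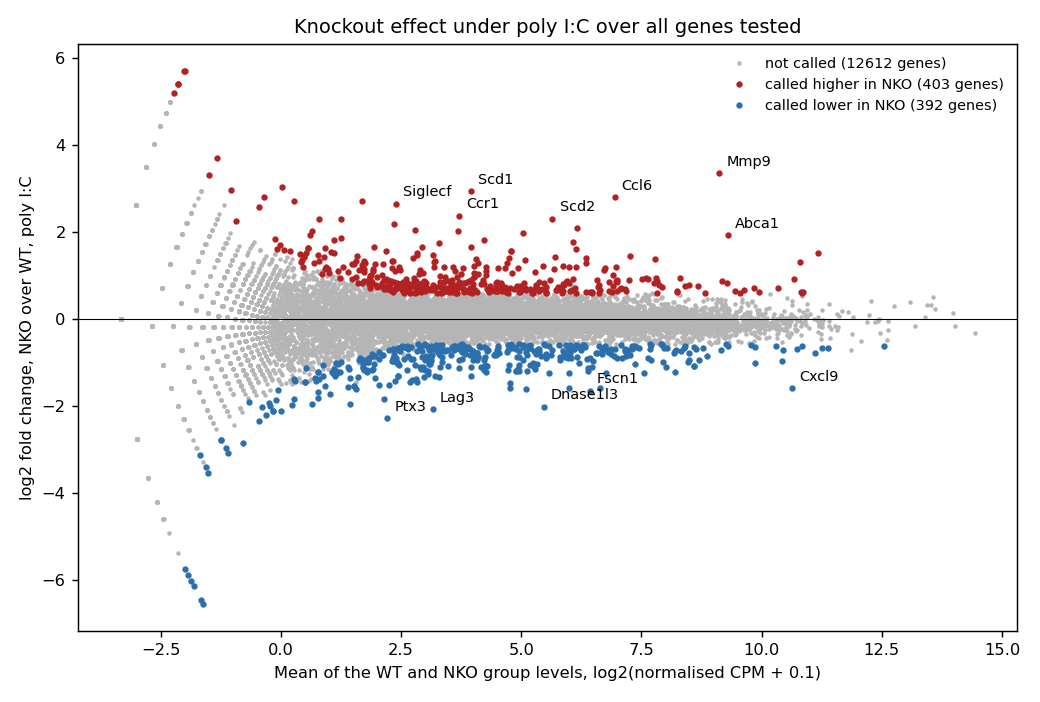
Knockout effect on every gene tested under poly I:C. Each point is a gene; the x axis is the mean of the group levels as log2(normalised CPM + 0.1) and the y axis the log2 fold change of NKO over WT (2 libraries each). The 403 red and 392 blue genes are called higher and lower, and points in the far left arcs have few or no counts in a group.

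The strongest increases, among genes with at least 5 CPM in one of the groups, included a proteinase, lipid desaturases, a chemokine, a nuclear receptor, a Siglec and a chemokine receptor. Mmp9, which encodes the secreted gelatinase MMP-9, was 181 and 168 normalised CPM in WT and 1795 and 1757 in NKO (10.2-fold, log2 3.35 ± 0.21, adjusted p = 4.32e-08 by edgeR). Scd1 and Scd2 encode stearoyl-CoA desaturases, which make monounsaturated fatty acids. Scd1 was 4.76 and 6.37 normalised CPM in WT and 39.7 and 44.8 in NKO. Scd2 was 21.6 and 23.6 in WT and 110 and 112 in NKO (log2 2.30 ± 0.15, adjusted p = 1.22e-08 by edgeR). In both genes every NKO library was above every WT library, but the genes were chosen for large differences. Reads shared by these similar genes could be divided unequally in counting. Ccl6, a CC chemokine of myeloid cells, was 49.3 and 43.6 in WT and 329 and 319 in NKO. Ccr1, a receptor for several CC chemokines, was 5.71 and 5.65 in WT and 28.9 and 29.9 in NKO. Neither gene overlapped between the groups, which follows from the choice of genes with large differences.

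The 12 largest increases also held Nr1d1, Siglecf, Map6, Vsig8, Lhfpl2, Slc12a5 and Dcstamp. Nr1d1 encodes the haem-binding nuclear receptor REV-ERBα, which itself represses through NCoR, and rose from 1.19 and 1.20 to 8.98 and 6.84 normalised CPM (log2 2.71 ± 0.29, adjusted p = 2.99e-11 by edgeR). Siglecf, a sialic acid-binding receptor also known from eosinophils and alveolar macrophages, was 2.26 and 1.80 in WT and 10.7 and 14.8 in NKO. The 8 eosinophil markers summed to 47 and 40 counts in WT and 68 and 68 in NKO, mostly from Ccr3 (41 and 36 against 63 and 60, not called), with Epx and Prg2 at 0, and their part in the difference was not tested. Lhfpl2, a tetraspan membrane protein, was 36.4 and 33.3 in WT and 152 and 143 in NKO, the tightest of these differences (log2 2.08 ± 0.08, adjusted p = 1.58e-30 by edgeR). Dcstamp, which is required for fusion of osteoclast precursors, was 7.26 and 5.41 in WT and 23.1 and 28.4 in NKO. Map6, Vsig8 and Slc12a5 had log2 fold changes of 2.29, 2.18 and 2.05, with WT levels of at most 3.69 normalised CPM.

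Besides Ncor1, the 12 strongest decreases included a pentraxin, an inhibitory receptor, a DNase, a chemokine and a cytokine chain. Ptx3, a long pentraxin that binds microbes, was 9.88 and 10.1 normalised CPM in WT and 1.80 and 2.28 in NKO (log2 -2.29 ± 0.29, adjusted p = 3.65e-09 by edgeR). Lag3, an inhibitory receptor that binds MHC class II, was 18.5 and 17.7 in WT and 4.33 and 4.25 in NKO. Dnase1l3, a secreted DNase, was 83.0 and 94.4 in WT and 18.7 and 25.0 in NKO (log2 -2.02 ± 0.13, adjusted p = 4.07e-20 by edgeR). In each of these genes both NKO libraries lay far below both WT libraries, but the genes were chosen for such differences. Fscn1, the actin-bundling protein fascin, was 151 and 154 in WT and 50.0 and 46.8 in NKO, and Cxcl9, an interferon-inducible chemokine for T cells, was 2585 and 2950 in WT and 825 and 998 in NKO. Il12b, the p40 chain shared by IL-12 and IL-23, was 101 and 120 in WT and 33.2 and 40.2 in NKO (log2 -1.59 ± 0.10, adjusted p = 1.76e-15 by edgeR). Mycl, a MYC family factor, and Kynu, an enzyme of tryptophan breakdown, fell to a similar degree (log2 -1.61 and -1.60). Oprd1, Zswim5 and Adamts4 had less than 10 normalised CPM in WT, and their log2 fold changes were -1.95, -1.85 and -1.63. Adamts4 was 0.634 and 2.59 in the NKO libraries and was no longer called without NKO replicate 1.

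**Figure D2:**
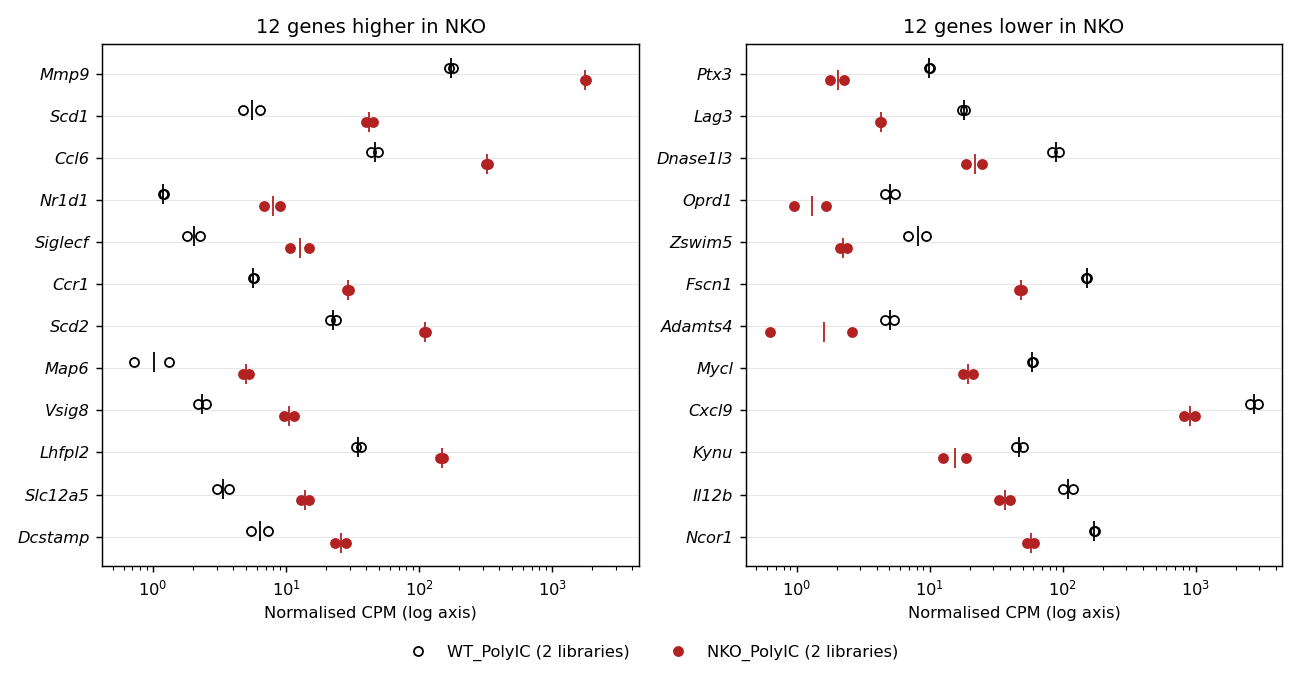
Levels of the 24 genes with the strongest calls (12 in each direction), as normalised CPM on a log axis. Open black circles are the 2 WT_PolyIC libraries, filled red circles the 2 NKO_PolyIC libraries, and ticks the group means. Mmp9 lies at 168 to 181 in WT and 1757 to 1795 in NKO, and Cxcl9 at 2585 to 2950 and 825 to 998; the genes were chosen for such differences.

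Lipid genes of the LXR and sterol pathways were among the higher genes. LXRs are oxysterol receptors that raise cholesterol efflux and, through SREBP-1c, fatty acid synthesis. Abca1, the efflux pump for cholesterol (NM_013454, mm10 chromosome 4, 53030789 to 53159895, minus strand), was 346 and 298 normalised CPM in WT and 1245 and 1200 in NKO (log2 1.92 ± 0.08, adjusted p = 1.04e-13 by edgeR). Abcg1, a second efflux pump, was 711 and 719 in WT and 1143 and 1176 in NKO. Of 19 LXR targets tested, 5 were higher (Scd1, Scd2, Abca1, Abcg1 and Pltp) and 1 lower (Il1rn), and the list median was 0.29. Pltp encodes the phospholipid transfer protein and differed by 0.59 on the log2 scale. Apoe, Mylip and Srebf1, further targets of the receptor, were not called, with log2 fold changes of -0.30, -0.30 and 0.15.

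The promoter of Abca1 is shown because it holds a direct repeat of the kind that LXR heterodimers bind, hexamer half-sites spaced by 4 bases, searched here by the last 5 bases of each half-site. The sequence is that of RefSeq for GRCm38.p6 (mm10), chr4:53159896-53160145, minus strand, the 250 bases before the annotated start. Capitals mark the match to GGTNA, 5 bases and GGTCA on the reverse strand, from 67 to 53 bases before the start.
Abca1: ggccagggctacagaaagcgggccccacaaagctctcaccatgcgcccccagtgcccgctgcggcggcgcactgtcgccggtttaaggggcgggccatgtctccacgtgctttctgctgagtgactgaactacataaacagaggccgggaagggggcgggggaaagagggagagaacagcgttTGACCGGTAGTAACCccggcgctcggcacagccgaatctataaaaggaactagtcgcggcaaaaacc
This pattern, searched on both strands of the same 250-base window, was present in 0.177% of 32851 RefSeq promoters and in 0.114% of 13165 promoters of genes tested. It was present in 4 of 410 promoters (0.976%) of higher genes and in 1 of 378 (0.265%) of lower genes. The 4 include that of Abca1, which is shown because it holds the pattern. These few matches carry no test. A gene may have several promoters in these counts, and promoters were found for 297 of the 403 higher and 286 of the 392 lower genes. No promoter entry was found for Scd1, Scd2, Mmp9, Map6 and Dcstamp among the higher genes named, or for Lag3, Dnase1l3, Adamts4 and Kynu among the lower.

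Genes of cholesterol and fatty acid synthesis were called in 1 direction too. Of 26 genes tested, 8 were higher and none lower, 25 had a log2 fold change above 0, and the median was 0.47. Under vehicle, 10 of them were higher and none lower, with a median of 0.48. Besides Scd1 and Scd2, the called genes included Sqle, Idi1, Acaca, Hmgcs1 and Fasn. Sqle, the squalene epoxidase, was 16.55 and 16.95 normalised CPM in WT and 39.1 and 36.6 in NKO (log2 1.17 ± 0.13, adjusted p = 1.59e-09 by edgeR). Acaca, the acetyl-CoA carboxylase that commits carbon to fatty acids, was 9.29 and 8.90 in WT and 18.4 and 16.9 in NKO. In both genes the groups did not overlap, but members were named by the size of their difference. Of 15 genes listed for PPAR and lipid storage, Lipa, Plin2 and Fabp5 were called higher with log2 fold changes of 0.60 to 0.61, close to the threshold, and none was called by DESeq2. The count was 2 without WT replicate 2 or NKO replicate 2.

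Cytokines were called in 1 direction. Of 19 inflammatory cytokines and their antagonists tested, 8 were lower and none higher, with a median log2 fold change of -0.57. They were Il12b, Ebi3, Osm, Lif, Il6, Il27, Il1rn and Il10. Ebi3 and Il27 encode both chains of the cytokine IL-27, and Ebi3 was 164 and 172 normalised CPM in WT and 69.3 and 72.5 in NKO (log2 -1.24 ± 0.08, adjusted p = 6.24e-16 by edgeR). Il27 was 265 and 279 in WT and 135 and 157 in NKO. Il1rn, the antagonist of the IL-1 receptor, was 586 and 656 in WT and 308 and 381 in NKO. The decreases thus included both inflammatory and anti-inflammatory members, and Il10 was 12.1 and 12.0 in WT and 7.08 and 8.19 in NKO. Il6 was at 2.14 and 1.80 in WT and 1.06 and 0.726 in NKO, and its call (adjusted p = 0.0473 by edgeR) was lost in 8 of 13 other settings. Tnf, at 918 and 930 against 703 and 749, had an adjusted p of 5.54e-06 by edgeR but a log2 fold change of -0.35, below the threshold. Il12a, the p35 chain, was below 1 normalised CPM in all 4 libraries and was not called.

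Chemokines moved in both directions. Of 12 CC chemokines, 2 were higher (Ccl6 and Ccl9) and 5 lower (Ccl3, Ccl4, Ccl22, Ccl12 and Ccl8). Ccl3, or MIP-1α, which attracts monocytes through CCR1, was 416 and 476 normalised CPM in WT and 170 and 213 in NKO (log2 -1.22 ± 0.12, adjusted p = 2.63e-06 by edgeR). Ccl4 was 538 and 589 in WT and 254 and 274 in NKO. Ccl9, another ligand of CCR1, was 1198 and 1183 in WT and 2219 and 2270 in NKO. The pair Ccl6 and Ccl9 and the pair Ccl3 and Ccl4 thus differed in opposite directions. Ccl5 was 4754 and 4756 in WT and 2858 and 2886 in NKO but had an adjusted p of 0.0545 by edgeR and was not called. Of 11 other chemokines, Cxcl9, Cxcl11 and Cx3cl1 were lower and Cxcl1 and Cxcl14 higher. Cxcl11 was 119 and 135 in WT and 49.8 and 60.2 in NKO, whereas Cxcl10, the third ligand of CXCR3, was 7298 and 7467 in WT and 5087 and 5418 in NKO (log2 -0.49) and was not called. Neither Cxcl1 nor Cxcl14 was called without WT replicate 2 (log2 1.09 and 0.79), and only 1 of the pair was called when any other library was left out.

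NF-κB feedback genes were measured next. Of 20 genes listed as NF-κB subunits and feedback, 6 were lower and none higher, 19 had a log2 fold change below 0, and the median was -0.46. Nfkbia, which encodes the inhibitor IκBα, was 716 and 742 normalised CPM in WT and 444 and 445 in NKO (log2 -0.71 ± 0.06, adjusted p = 3.23e-15 by edgeR). Nfkbib, or IκBβ, was 145 and 139 in WT and 87.0 and 85.3 in NKO. Dusp2, a nuclear MAP kinase phosphatase, was 69.3 and 77.4 in WT and 29.4 and 32.1 in NKO. Dusp1 and Socs3, further feedback inhibitors, each had a log2 fold change of -0.91, and Socs3 was not called by DESeq2 or in the replicate block of the 16 libraries of the shared stamp. Ptgs2, the inducible cyclooxygenase (NM_011198, mm10 chromosome 1, 150100031 to 150108234, plus strand), was 362 and 396 in WT and 149 and 201 in NKO (log2 -1.12 ± 0.15, adjusted p = 8.22e-05 by edgeR). The subunits Nfkb1, Nfkb2, Rela, Relb and Rel were not called, and their log2 fold changes lay between -0.54 and -0.12.

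The promoters of Cxcl9 and Nfkbia are shown as examples of lower genes that carry a κB-like pattern. The pattern searched was GGNNNTTCC on both strands, and matches are in capitals in the 250 bases before the annotated starts (RefSeq, GRCm38.p6). The Cxcl9 window is chr5:92328080-92328329, minus strand, with matches starting 130 and 42 bases before the start.
Cxcl9: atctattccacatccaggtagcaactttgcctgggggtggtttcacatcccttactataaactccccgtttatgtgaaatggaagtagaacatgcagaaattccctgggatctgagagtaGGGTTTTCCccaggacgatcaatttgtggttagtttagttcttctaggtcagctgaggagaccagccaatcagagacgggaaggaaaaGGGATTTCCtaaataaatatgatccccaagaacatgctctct
The Nfkbia window is chr12:55492648-55492897, minus strand, with matches starting 211, 178 and 29 bases before the start, the last of which matches on both strands.
Nfkbia: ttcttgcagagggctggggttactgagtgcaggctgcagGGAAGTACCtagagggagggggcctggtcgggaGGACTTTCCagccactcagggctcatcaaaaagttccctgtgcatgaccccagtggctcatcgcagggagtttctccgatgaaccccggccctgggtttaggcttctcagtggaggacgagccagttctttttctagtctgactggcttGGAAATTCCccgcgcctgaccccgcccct
This short pattern is common, being present in 15.7% of all RefSeq promoters and 18.4% of those of genes tested, and it was present in 19.3% of those of lower genes and 14.6% of those of higher genes. An interferon response-like pattern, GAAA repeated after 2 bases on either strand, was present in 2.98% of all promoters, 5.82% of those of lower genes and 1.46% of those of higher genes. These shares are descriptions of the sequence windows and carry no test.

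The costimulatory molecules were the list with the most lower calls. Of 18 tested, 10 were lower and none higher (median log2 fold change -0.62): Lag3, Cd80, Icosl, Cd83, Tnfsf9, Icam1, Cd40, Vcam1, Tnfsf4 and Cd69. Cd80, a ligand of CD28, was 11.2 and 13.2 normalised CPM in WT and 5.91 and 6.01 in NKO. Icosl, the ligand of ICOS, was 232 and 240 in WT and 118 and 113 in NKO (log2 -1.03 ± 0.07, adjusted p = 9.57e-19 by edgeR). Cd83, a marker of mature antigen-presenting cells, was 490 and 515 in WT and 237 and 266 in NKO. The count of lower members was 6 without NKO replicate 1, 7 without WT replicate 2 and 9 or 10 without the others. Cd86 and Cd274 (PD-L1) were not called, at -0.30 and -0.04 on the log2 scale. All 17 genes of MHC and antigen presentation were below 0, with a median of -0.26, but only H2-Ab1, a class II chain, was called (log2 -0.61), and not without WT replicate 2 or NKO replicate 1.

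Complement genes were called mostly lower. Of 13 genes of complement and pentraxins, 6 were lower (Ptx3, Serping1, C1qa, C1qc, C1qb and Cfb), 1 was higher, and the median was -0.68. The lower count was 5 by DESeq2 and without any one library. The 3 chains of C1q, the recognition molecule of the classical pathway, moved together, and C1qa was 1349 and 1288 normalised CPM in WT and 679 and 629 in NKO (log2 -1.01 ± 0.07, adjusted p = 2.76e-11 by edgeR). C1qb and C1qc had log2 fold changes of -0.68 and -0.69. Nos2, the inducible nitric oxide synthase, was 283 and 296 in WT and 109 and 133 in NKO (log2 -1.26 ± 0.09, adjusted p = 8.40e-11 by edgeR), and with Hpgd it was 1 of 2 genes called lower among 16 enzymes of prostaglandin, nitric oxide and itaconate metabolism, a list that does not hold Ptgs2. The count was 4 by DESeq2 or without NKO replicate 2. Hpgd, which degrades prostaglandins, had 4 and 7 counts in WT and 0 in NKO, at least 2.10-fold lower at the limit of 3 counts per library. Acod1, the itaconate synthase, was not called, at 6421 and 6526 in WT and 6046 and 6400 in NKO (log2 -0.06, adjusted p = 0.871 by edgeR). Cp, which encodes ceruloplasmin, was 88.1 and 86.1 in WT and 57.7 and 58.8 in NKO, and its log2 fold change of -0.58 lay just under the threshold.

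Calls in the sensing pathway and antiviral lists were few at 6 h of poly I:C. Over all genes tested 5.93% were called, a share at which lists of this size hold few calls. None of 22 genes of the TLR3 and RNA sensor pathway was called, with a median log2 fold change of -0.08. Tlr3 was 426 and 438 normalised CPM in WT and 348 and 381 in NKO (log2 -0.24), and Ticam1, Tbk1 and Irf3 were at -0.51, -0.02 and -0.05. Ifnb1, the interferon made on TLR3 signalling, was lower, at 7.74 and 8.90 in WT and 2.96 and 3.73 in NKO (log2 -1.31 ± 0.30, adjusted p = 0.000854 by edgeR). Ifnar1, a subunit of its receptor, was higher, at 181 and 182 in NKO against 114 and 118. Among 29 antiviral interferon-stimulated genes only Oasl1 was called, with a log2 fold change of -0.63, and not by DESeq2 or without WT replicate 2 or NKO replicate 1. The median of the list was nevertheless -0.19, and 27 of its genes were below 0. Isg15, a ubiquitin-like antiviral protein, was 935 and 903 in WT and 791 and 778 in NKO and was not called. Of 16 interferon-inducible GTPases, Gbp4, Tgtp1, Gbp8 and Gbp9 were lower (log2 -0.64 to -0.95). The count was 2 without WT replicate 2 or NKO replicate 1, and reads of these closely related families can be divided unequally between members. In sum over its 29 genes, the antiviral list was at 69560 and 71630 normalised CPM in WT and 62560 and 65840 in NKO.

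Proteinases were called in both directions. Of 15 matrix metalloproteinases and inhibitors, 5 were higher (Mmp9, Mmp12, Mmp8, Mmp19 and Mmp27) and 3 lower (Mmp25, Mmp14 and Timp1). Mmp12, the macrophage elastase, was 1389 and 1324 normalised CPM in WT and 3653 and 4087 in NKO (log2 1.51 ± 0.06, adjusted p = 1.61e-27 by edgeR). Mmp14, a membrane-anchored collagenase, was 558 and 566 in WT and 267 and 260 in NKO. Of 8 osteoclast markers, 6 were tested and 5 were higher: Mmp9, Dcstamp, Ctsk, Acp5 and Atp6v0d2. Ctsk, the bone-degrading cathepsin K, was 16.8 and 15.4 in WT and 44.9 and 49.3 in NKO, and Acp5, tartrate-resistant acid phosphatase, was 36.9 and 40.3 in WT and 87.3 and 91.1 in NKO. Calcr had no counts, and Oscar and Ocstamp had at most 7 counts in a library. The summed level of the 6 tested was 547 to 557 normalised CPM in WT and 2453 to 2481 in NKO, and most of this rise came from Mmp9. Mmp9 had 1516 and 1399 of the list's 4677 and 4548 counts in WT. In NKO it had 17001 and 16949 of 23229 and 23934. The part that osteoclast-lineage cells play in the differences was not tested.

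Among 21 Siglec, CD300 and C-type lectin receptors, 3 were higher (Siglecf, Cd300a and Cd300lb) and 3 lower (Siglecg, Cd300e and Clec4a1). Cd300a, an inhibitory receptor, was 48.5 and 50.5 normalised CPM in WT and 100 and 84.8 in NKO. Cd300e, an activating one, was 15.6 and 15.0 in WT and 6.97 and 5.18 in NKO (log2 -1.33 ± 0.20, adjusted p = 2.33e-07 by edgeR). Siglecg had 9 and 7 counts in WT and 0 in NKO, at least 3.05-fold lower. Of the genes of the NRF2 antioxidant pathway, 3 of 12 were called higher (Srxn1, Slc7a11 and Txnrd1) and none lower, with a median of 0.49. Srxn1, which repairs peroxiredoxins, was 119 and 105 in WT and 216 and 195 in NKO. Of 20 AP-1, ATF and early response factors, Egr2 was higher, at 60.1 and 70.0 in NKO against 17.02 and 16.23, and Batf, Batf3 and Egr1 were lower. Egr1 lost its call whichever of the 4 libraries was left out, and the lower count was 1 without WT replicate 2 or NKO replicate 1. Glycolysis and hypoxia had no call among 20 genes (median -0.18). Inflammasome genes had 1 of 13 (Mefv, pyrin, log2 -1.39) and cell division 1 of 20 (Ccne1, cyclin E1, log2 -1.05). These counts are near the 5.93% called over all genes tested. The inflammasome and cell division counts were each 2 by DESeq2. The inflammasome count was also 2 without WT replicate 1 or NKO replicate 2, and the cell division count 2 without either NKO library. In these counts Gapdh had only 4 to 11 reads per library, and it is not informative here.

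**Figure D3:**
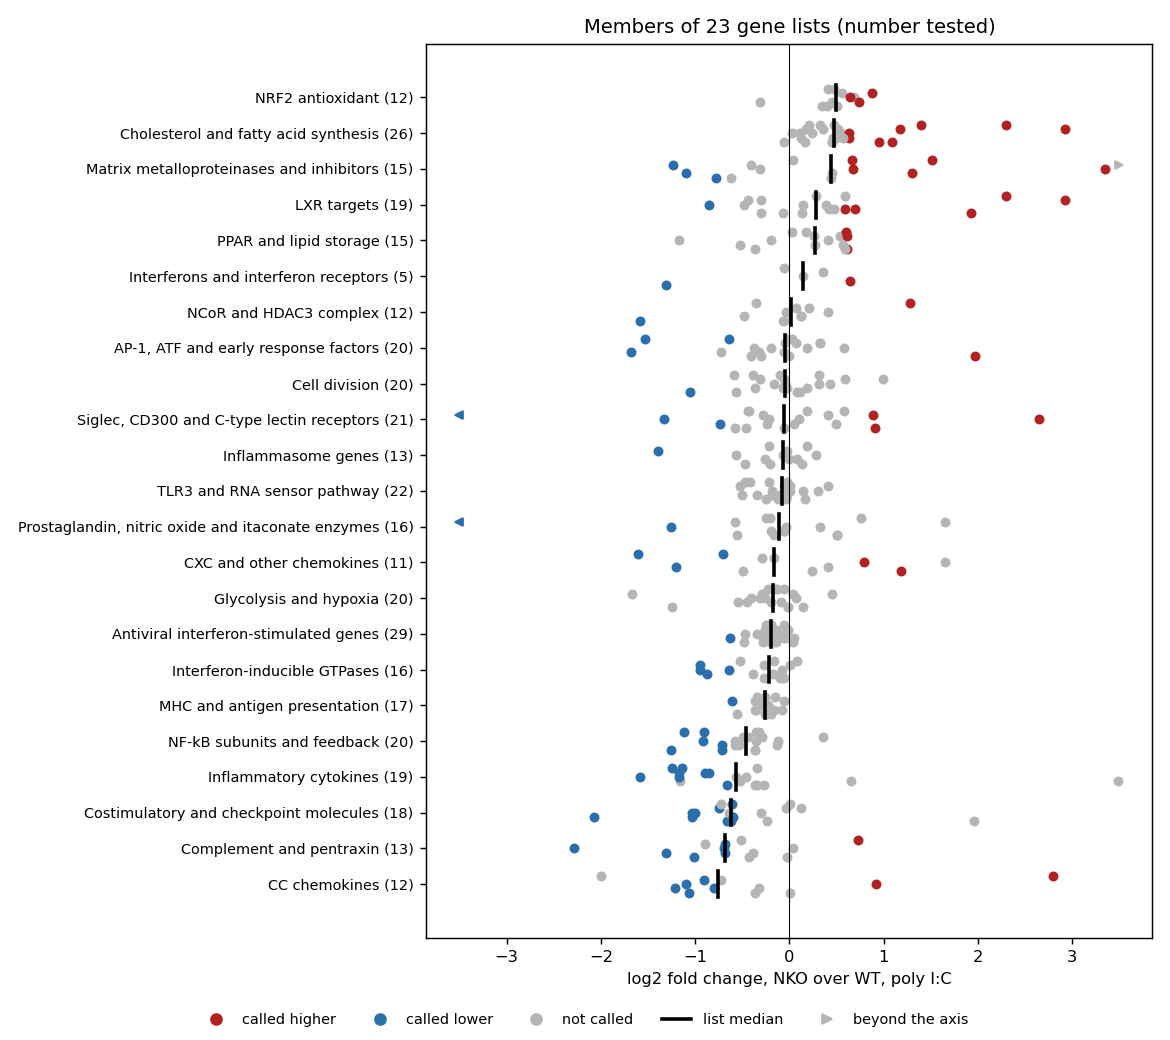
Members of the 23 gene lists, ordered by list median. Each point is a gene tested, placed by its log2 fold change of NKO over WT under poly I:C (genes with no counts in these libraries are left out); red and blue points are called higher and lower, black bars are list medians, and triangles lie beyond the axis. CC chemokines, complement, costimulatory molecules and cytokines have the lowest medians (-0.76 to -0.57), and NRF2 and lipid synthesis genes the highest (0.49 and 0.47).

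The same genotypes without poly I:C were compared in the other conditions, which share no library with the poly I:C comparison. Under vehicle, 322 genes were higher (2.4%) and 510 lower (3.8%). Of the 403 genes higher under poly I:C, 143 (35.5%) were also called higher under vehicle, which was 44.4% of the vehicle list, and of the 392 lower genes 122 (31.1%) were also called lower, 23.9% of the vehicle list. Called with the opposite sign under vehicle were 3 of the higher and 3 of the lower genes. The gene lists also held calls under vehicle. Complement had 6 lower members (median -0.80), NF-κB feedback 6 (-0.28), cytokines 5 (-0.46) and costimulatory molecules 5 (-0.58), with none higher. CC chemokines had 2 higher and 3 lower members (-0.80). The Siglec, CD300 and C-type lectin list had 1 higher and 11 lower (-0.60). Under IFN-β 510 genes were called (3.8%) and under IL-4 568 (4.24%), and they included 131 and 114 of the higher genes and 93 and 116 of the lower genes with the same sign. In all 4 conditions, 86 genes were higher and 50 lower. Mmp9, Scd1, Scd2, Ccl6, Nr1d1, Siglecf, Ccr1, Vsig8, Slc12a5, Lhfpl2 and Dcstamp were called higher in each, and Ncor1 and Fscn1 called lower. Scd1 had log2 fold changes of 3.97, 3.79 and 3.76 under vehicle, IFN-β and IL-4, against 2.92 under poly I:C. Lag3, Dnase1l3, Mycl, Il12b and Kynu were not called under vehicle or IFN-β, and none of them had more than 8 counts in a vehicle library.

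**Figure D4:**
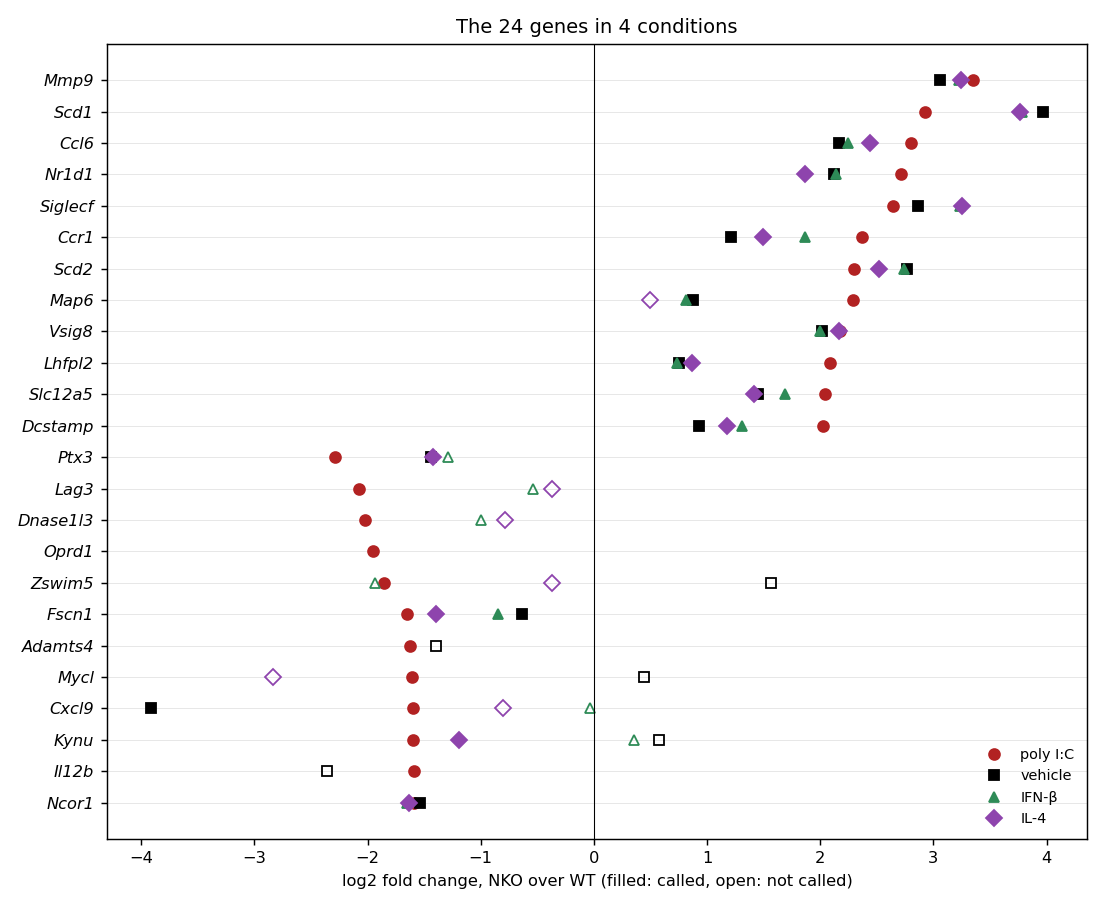
Knockout effect on the same 24 genes under poly I:C (red circles), vehicle (black squares), IFN-β (green triangles) and IL-4 (purple diamonds), as log2 fold changes of NKO over WT with 2 libraries per group. Filled symbols are called and open symbols are not, and conditions in which all 4 libraries had 3 counts or fewer are left out. Mmp9 lies at 3.06 to 3.35 in all conditions, whereas Lhfpl2 is at 2.08 under poly I:C and 0.74 to 0.87 elsewhere.

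Whether the knockout effect itself differed was tested with an interaction term. Against vehicle, the effect was more positive under poly I:C for 286 genes (2.13%) and more negative for 148 (1.1%). With DESeq2's size factors these numbers were 227 and 185, so that the share of positive terms was 65.9% with TMM and 55.1% with size factors. Against IFN-β 285 genes were called (2.13%) and against IL-4 303 (2.26%), in tests that reuse the same poly I:C libraries. Lhfpl2 had an interaction of 1.33 against vehicle, Ccr1 of 1.16, Bhlhe41, a repressor of the circadian system, of 0.99, and Abca1 of 0.77, so that these genes differed more between genotypes under poly I:C. Lhfpl2 fell on poly I:C in WT cells by 3.60 on the log2 scale and Ccr1 by 1.85, with values of -2.27 and -0.69 in NKO cells. These responses share libraries with the interaction term. Dusp2 and Il1rn had interactions of -1.30 and -0.79, and Vcam1, an adhesion molecule, of -0.91. Dusp2 had a knockout effect of -1.25 under poly I:C and 0.05, -0.14 and 0.27 under vehicle, IFN-β and IL-4, and Il1rn of -0.85 and -0.06, 0.27 and 0.29. For Ptgs2, Tnf and Il12b no interaction with vehicle was called.

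Of the 29 antiviral genes, 21 were lower in NKO under vehicle (median log2 fold change -0.95) against 1 under poly I:C (-0.19), and 9 had a positive interaction. Of the GTPases, 13 of 16 were lower under vehicle. The summed antiviral level was 1371 normalised CPM in WT_Veh replicate 1 and 2223 in replicate 2, against 1017 and 1099 in NKO_Veh, and without WT_Veh replicate 2 the interaction was positive for 3 of the antiviral genes and negative for 1, and positive for 2 of the GTPases in place of 6.

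Genes were also sorted by responses measured in libraries outside the comparison. KLA (Kdo2-lipid A), a ligand of TLR4, was tested against vehicle at 6 h in each of the 3 other count tables of the series, all without NCoR knockout: wild type cells (KLA against Veh), wild type cells given the solvent DMSO (DMSO_KLA against DMSO_Veh) and Pgc1b flox/flox cells without Cre. Altogether 11757 genes were tested in every table. KLA raised 2362 of these genes in all 3 tables (20.1%) and lowered 2413 (20.5%). The 11757 genes included 316 of the 392 genes called lower in NKO under poly I:C and 395 of the 403 called higher. More lower than higher genes were thus left out of these shares. Of the 316 lower genes, 196 (62.0%) were KLA-raised and 31 (9.81%) KLA-lowered. Of the 395 higher genes, 31 (7.85%) were KLA-raised and 223 (56.5%) KLA-lowered. The whole KLA-raised class was shifted slightly, with a median of -0.14 and 72.5% of its genes below 0, and 8.30% of it was called lower. IFN-β raised 521 of the genes in WT cells (4.43%), which included 66 (20.9%) of the lower and 7 (1.77%) of the higher genes. Lower genes that were raised by KLA but not by IFN-β numbered 141 (44.6%), in a class that held 16.8% of the 11757 genes. Lower genes raised by both numbered 55 (17.4%), in a class that held 3.33%. Of the genes of these classes, 7.15% and 14.1% were called lower.

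**Figure D5:**
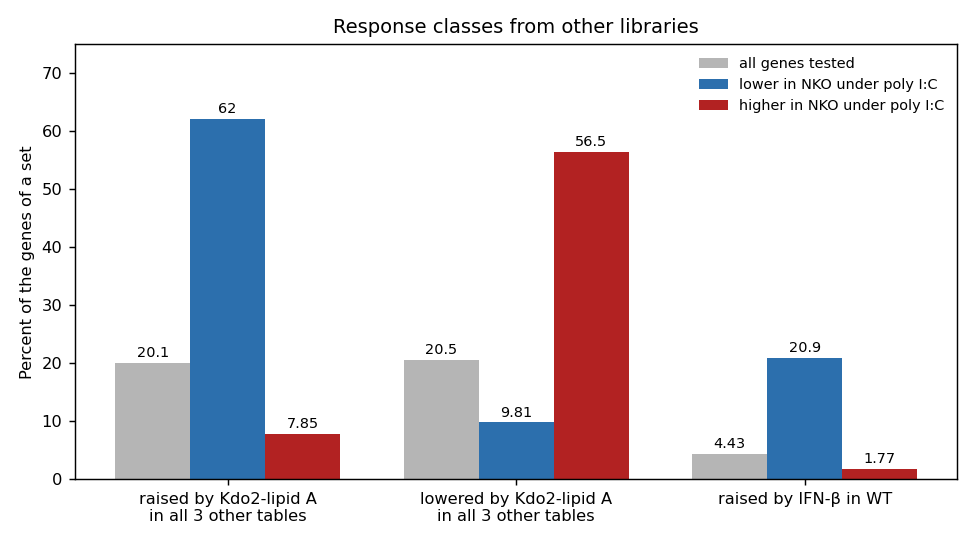
Share of genes in 3 response classes, in percent of all 11757 genes tested in every table (grey), of the 316 lower (blue) and of the 395 higher genes (red) of NKO under poly I:C. The KLA-raised class holds 62.0% of the lower genes and 20.1% of all, and the KLA-lowered class 56.5% of the higher genes and 20.5% of all.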

How the data were processed

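RNA-seq counts of mouse BMDMs were used as deposited by the authors: whole-number exon counts per RefSeq gene, from STAR alignments to mm10 counted with HOMER (tools per the submitters' processing notes, versions not given in the sources used here), not normalized and condensed to 1 transcript a gene. The counting command in the file header names no strand option, whereas the methods of the study describe strand-specific counting, so reads of overlapping antisense genes cannot be told apart. Of 24940 genes, 1346 are shorter than 250 bp. These are left out in the study's methods and were kept here.

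All 24 libraries (12 groups of 2) of the table with NCoR genotypes were fitted with edgeR 4.0.16 in R 4.3.3: filterByExpr on the groups, TMM scaling, a robust quasi-likelihood fit, 2-sided F-tests and Benjamini-Hochberg adjustment over 13407 genes. Standard errors of log2 fold changes were derived from the F statistic (common biological coefficient of variation 0.0421). Genes were called at an adjusted p under 0.05 together with a change over 1.5-fold. Other tables were fitted separately. The pipeline was tested on simulated data. Gene lists were written from general knowledge, and the members and lists were chosen with earlier results of these data known. The genes named were Ncor1, Hdac3 and Lyz2 (1 further checked gene and some list members are not reported here), the 12 strongest calls in each direction among genes reaching 5 CPM in a compared group, up to 4 called members per list with others by count, the readouts Ptgs2, Cp, Il12a, Abca1, Scd2, Ifnb1, Tnf, Il6, Cxcl10, Isg15 and Tlr3, and the 6 positive and 6 negative interactions with the largest estimates. Further genes named, such as Ccl5, Bhlhe41 and uncalled list members, were chosen after their values were seen.

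Alternatives were DESeq2 1.42.0, its size factors in edgeR, other filters, fewer groups, a replicate block, each library left out, no fold threshold, and transcripts of at least 250 bp. Replicate numbers were not taken as pairs: deviations of same-numbered WT and NKO poly I:C libraries from their group means correlated at 0.02 across 9472 genes, and the labels name no shared mouse or culture. Figures were drawn with matplotlib 3.10.9.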

Additional observations from a re-analysis of the deposited data

Results flagged for a closer look

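The difference between NKO and WT was not the same under poly I:C and vehicle for 434 genes. These passed the test of the interaction term (edgeR's quasi-likelihood F-test, adjusted p below 0.05 and over 1.5-fold). Groups of 2 libraries are too small for a search for single outlying libraries.

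Among the most negative terms, Mmp13, a collagenase, was 23.8 and 21.6 normalised CPM in WT and 87.1 and 96.9 in NKO under vehicle, and 372 and 426 against 478 and 608 under poly I:C, an interaction of -1.58 on the log2 scale. Pou3f1, a POU-domain factor, was 9.97 and 9.17 against 27.6 and 24.9 under vehicle and 215 and 209 against 184 and 198 under poly I:C, an interaction of -1.60. In both genes the NKO libraries were above WT under vehicle. Hspa1b, an inducible heat shock protein, had -1.55 and Dmtn, an actin-binding protein, -1.59, with 14 to 68 and 7 to 22 counts in the vehicle libraries. Mmp13 and Pou3f1 kept the call in every alternative run for them. Hspa1b lost it without NKO_Veh replicate 2 (-1.15), and Dmtn when any of 5 libraries was left out (-1.22 to -1.61). Zswim5 had -3.41 and Kynu -2.17, with at most 4 and 8 counts in any vehicle library, so that the estimates depend on the prior count, and neither was called without WT_Veh replicate 2.

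Among the most positive terms, Acod1 had 2.58, with vehicle levels of 2.82 and 11.1 in WT and 1.08 and 1.14 in NKO. Its term was 1.28 and called without WT_Veh replicate 2, but the call was lost without NKO_Veh replicate 1 or 2 (2.54 and 2.62) and in 3 other settings. Gbp2b had 4.63, Apol9b 4.17, BC147527 2.64, Fpr2 2.51 and Hcar2 2.50, and none of these was called without WT_Veh replicate 2 (2.46, 3.99, 2.06, 1.70 and 2.12). All 5 had between 0 and 3 counts in each NKO vehicle library, which also makes their estimates depend on the prior count. Of the 12 terms, 9 lost the call without NKO_Veh replicate 2 and 7 without NKO_Veh replicate 1.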

How the results depend on the processing

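No named gene changed sign under the alternatives tried. Higher calls outnumbered lower ones (403 against 392), but fewer genes were higher than lower with DESeq2, with its size factors, with only the compared groups (410 against 448) and with a filter at a mean of 5 CPM (376 against 388). Without the threshold on fold change, 2675 genes passed in the poly I:C comparison (1361 higher, 1314 lower) and 1325 in the interaction with vehicle (759 higher, 566 lower). With KLA responses taken from any of the 3 tables in place of all 3, 74.05% of the 316 lower genes tested in every table were KLA-raised. Of the 395 higher genes tested in every table, 76.71% were KLA-lowered. Leaving out each library of the comparison gave 628 to 725 calls (319 to 383 higher, 309 to 353 lower), and leaving out each of the 8 libraries behind the interaction gave 333 to 558 (218 to 384 higher, 115 to 174 lower). DESeq2 called 314 higher and 358 lower genes, and 631 of the 795 calls were shared. Its size factors in edgeR gave 360 and 452, or 44.3% higher in place of 50.7%. Replicate numbers were not established as pairs (correlation of deviations 0.02), and with a replicate block the calls were 796 over the 16 libraries of the shared stamp and 791 over all libraries, and 435 and 432 for the interaction. Of 81 called genes among the 96 named, 17 lost the call in at least 1 setting, as did 10 of the 12 named interactions. With 2 libraries a group, genes under about 1 normalised CPM are measured poorly.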

Other observations

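Genes of the circadian clock were not among the lists and were chosen after their values were seen. Of 17 such genes, 16 were tested, 10 were called higher in NKO under poly I:C and none lower. Over all genes tested 3.01% were called higher, and a set chosen in this way carries no test. Besides Nr1d1 they were Bhlhe41, Dbp, Npas2, Per2, Tef, Per3, Bhlhe40, Nr1d2 and Arntl. Dbp, a PAR-domain factor under direct control of the clock, was 5.48 and 5.05 normalised CPM in WT and 20.2 and 15.2 in NKO (log2 1.75). Bhlhe41 was 38.3 and 35.5 in WT and 129 and 121 in NKO (log2 1.76). Per2, a repressor of the clock, had a log2 fold change of 1.33, and Arntl, its activator, of 0.59, close to the threshold. Clock, Per1, Cry1, Cry2, Nfil3 and Ciart were not called, with values of 0.43, 0.08, 0.02, -0.14, -0.20 and 0.68.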
